A study of Mus musculus with 23 samples.

Results

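Of the 14 tumor libraries of IL6Myc mice, 10 were compared here, the 5 with the highest and the 5 with the lowest expression of a plasma cell score, out of 23 libraries in the series. The score of a tumor was the mean of log2(CPM + 1) over SDC1, PRDM1, XBP1, JCHAIN and MZB1, and the groups were chosen by these 5 measured values, of genes of antibody-secreting plasma cells, with CPM (counts scaled to a common library size) taken on the total of each library. The high-score tumors were, from the highest score, SPL_1616 (10.39), MLN_1616 (10.12), MLN_1610 (9.76), MLN_1615 (9.56) and SPL_1611 (9.32), where SPL is spleen, MLN is mesenteric lymph node and the number is the mouse. The low-score tumors were MLN_1609 (8.14), MLN_1611 (6.99), SPL_1612 (6.98), SPL_1615 (6.39) and SPL_1610 (5.84). Both tumors of mouse 1616 were in the high group, and mice 1610, 1611 and 1615 each gave 1 tumor to each group, so the 10 libraries came from 6 mice. Just outside the boundaries lay MLN_1613 at 9.06 and SPL_1613 at 8.42, with MLN_1614 (9.0) and SPL_1614 (8.71) between them. The 5 scoring genes chose the groups and are not results.

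The study profiled total RNA of tumors from IL6Myc transgenic mice, with B cells of WT Balb/c mice as controls. Cells of every group, controls included, were enriched with magnetic beads that remove cells other than B cells. The tumor cells are labelled malignant plasma cells and were untreated. The controls were 4 libraries of quiescent splenic B cells and 5 of splenic B cells cultured for 16 hours with LPS at 1 ug/ml, a bacterial component that makes B cells divide, called activated here. The labels give no age, no promoter of the transgenes and no clone structure of the tumors, and a negative selection leaves in the sample any cell that escapes the beads.

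Mature B cells carry a B cell receptor on their surface, present antigen on MHC class II and are held in their state by transcription factors such as PAX5. When they become plasma cells, IRF4 and Blimp-1 (encoded by PRDM1) shut down that program, XBP1 enlarges the endoplasmic reticulum (ER), and the cell turns to the secretion of antibody. Multiple myeloma is the malignancy of plasma cells, and interleukin-6 and MYC are known drivers of plasma cell tumors in mice.

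The label of malignant plasma cells was checked against defining genes. In the high-score tumors SDC1 (syndecan-1, the CD138 antigen) lay between 188 and 465 CPM and XBP1 between 1694 and 4334 CPM. Both genes entered the score, which took CPM on library totals, while the CPM given here are scaled between libraries by TMM. In the low-score tumors SDC1 lay between 8.89 and 75.4 CPM and XBP1 between 141 and 455 CPM, beside 22.3 to 25.4 CPM and 170.0 to 194 CPM in quiescent B cells. The score itself was 6.67 to 6.86 in quiescent and 5.63 to 5.91 in activated B cells, so SPL_1615 and SPL_1610 scored within the span of the controls and MLN_1611 and SPL_1612 just above it. PAX5 and MS4A1, defining genes of B cells, were abundant in all 5. SDC1 and XBP1 are scoring genes, so the choice of the groups set their low values, and in MLN_1609, MLN_1611 and SPL_1612 both still lay above the quiescent range. In activated B cells XBP1 lay between 507 and 528 CPM, above every low-score tumor. SDC1 lay between 0.673 and 1.63 CPM there, below every low-score tumor. The label itself was not tested, and the 5 libraries are called low-score tumors throughout. In bulk RNA, fewer cells of a type and less RNA per cell cannot be told apart. Totals of estimated counts lay between 13328900 and 21897200 in the 14 tumor libraries, and immunoglobulin genes took 10.1% to 26.3% of them in the high-score and 1.03% to 3.84% in the low-score tumors.

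**Figure D1:**
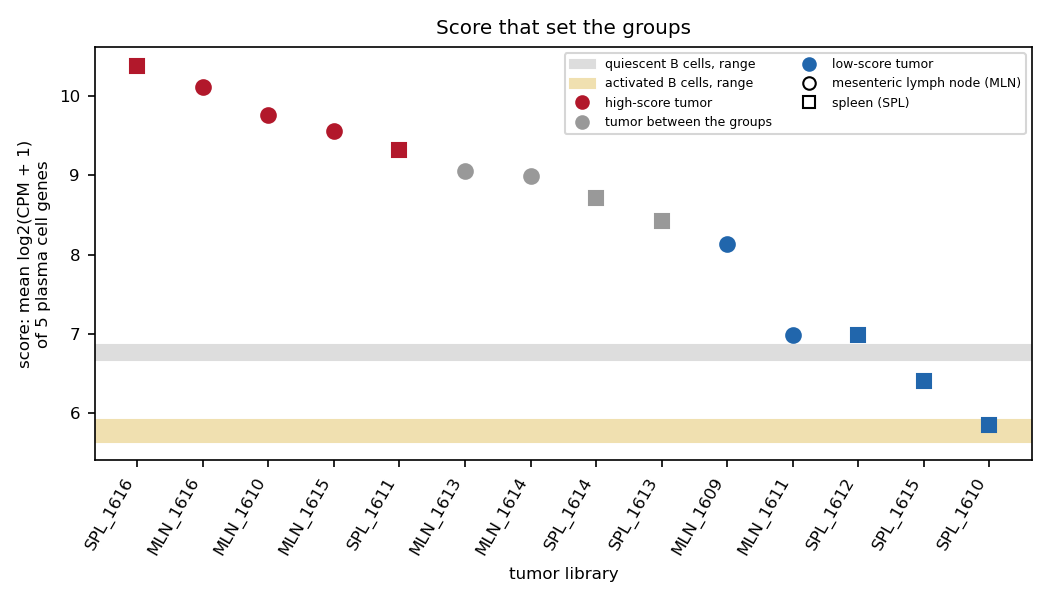
Score of the 14 tumor libraries, ordered from highest to lowest, as the mean of log2(CPM + 1) over the 5 scoring genes. Circles are MLN and squares spleen tumors, color gives the group, and bands span the control libraries. The high-score tumors lie between 9.32 and 10.39 and the low-score tumors between 5.84 and 8.14.

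Of 10882 genes tested with edgeR, 4729 (43.5%) differed between the high-score and the low-score tumors at an adjusted p of 0.05, 2439 (22.4%) higher and 2290 (21%) lower in the high-score tumors. The ranges of the groups did not overlap for 3579 genes (32.9%), 1594 of them (14.6%) higher in every high-score tumor. Because the groups were cut from measured values, these tests say only which genes go with the score. The genes of plasma cells and of secretion lie close to the scoring genes, and their counts are given as a description. With the mouse as a block, which rests on the 3 mice that gave a tumor to each group, 1548 genes (14.2%) were called, 995 (9.14%) higher and 553 (5.08%) lower. In what follows, "with the mouse as a block" gives the adjusted p of that fit where it changes a call. Values are CPM scaled by TMM, and the 5 high-score libraries are always given in the order SPL_1616, MLN_1616, MLN_1610, MLN_1615 and SPL_1611, the 5 low-score libraries in the order MLN_1609, MLN_1611, SPL_1612, SPL_1615 and SPL_1610. Log2 differences are high-score minus low-score tumors with an approximate SE (n = 5 and 5).

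Genes of mature B cells were lower in the high-score tumors. Of 29 tested genes of mature B cell identity, 27 were lower and 2 (CD72 and VPREB3) were not called, with a median log2 difference of -2.74 beside -0.006 over all genes tested. PAX5, the transcription factor that holds cells in the B lineage, was at 23.5, 177, 124, 92.2 and 6.34 CPM in the high-score and at 584, 888, 949, 945 and 1056 CPM in the low-score tumors. The groups did not overlap, SPL_1611 and SPL_1616 were far below the other high-score tumors, and MLN_1609 was the lowest of the low-score tumors. The log2 difference of PAX5 was -3.36 ± 0.72 (adjusted p = 0.00433, and 0.0692 with the mouse as a block). Quiescent B cells held 1430.1 to 1585 CPM and activated B cells 1506 to 1608 CPM of PAX5, more than any tumor.

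MS4A1 (CD20, a surface protein of B cells) was at 46.2, 265, 229, 127 and 11.7 CPM in the high-score and at 762, 1399.5, 1380.1, 1458 and 1726 CPM in the low-score tumors. As for PAX5, SPL_1611 was the lowest of the 10 libraries and no high-score tumor reached the low-score range. The log2 difference of MS4A1 was -3.29 ± 0.70 (adjusted p = 0.00405, and 0.0601 with the mouse as a block). CD79A, a signaling chain of the B cell receptor, differed by -3.40 ± 0.73 (adjusted p = 0.00435, 0.065 with the block). BACH2, a repressor of the plasma cell fate, was at 6.77, 63.4, 73.1, 26 and 4.76 CPM in the high-score and 175, 249, 173, 253 and 336 CPM in the low-score tumors (-2.75 ± 0.69, adjusted p = 0.00949, 0.0801 with the block). CR2 (CD21, the complement receptor of B cells) showed the largest difference of the list at -3.88 ± 0.56 (adjusted p = 0.000644) and kept its call with the block. BLK, a kinase of the receptor (-3.80, adjusted p = 0.0509 with the block), CXCR5, the receptor that leads B cells into follicles (-3.62), and CD22, an inhibitory co-receptor (-3.58), followed it. With the block, 13 of the 27 lower genes kept their call.

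**Figure D2:**
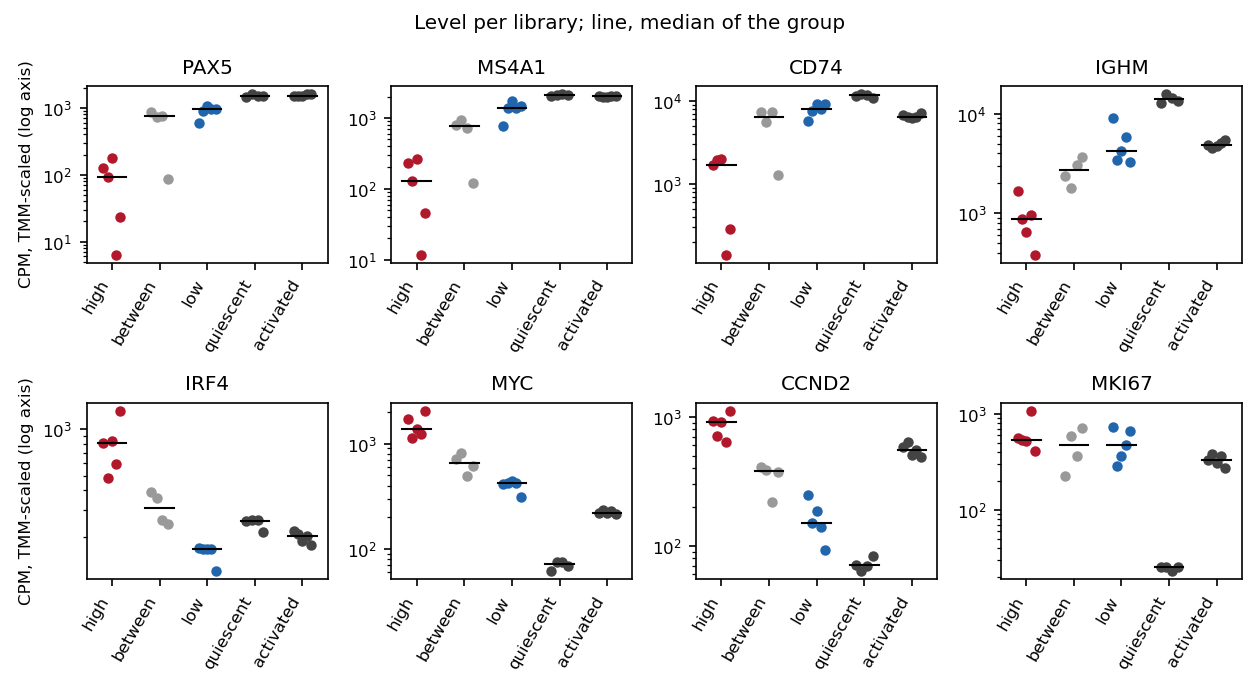
CPM of 8 genes on log axes in the high-score tumors, the tumors between the groups, the low-score tumors, and quiescent and activated B cells. Each point is a library and each line a group median. PAX5, MS4A1, CD74 and IGHM do not overlap between high-score and low-score tumors and are lower in the high-score tumors, IRF4, MYC and CCND2 are higher without overlap, and MKI67 overlaps.

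MHC class II genes, which display antigen to helper T cells, were lower for 10 of 11 tested genes (median log2 difference -2.87), with CTSS as the exception. Over all genes tested, 21% were lower. CD74, the invariant chain, was at 282, 1984, 1666, 1952 and 139.7 CPM in the high-score and at 5678, 7512, 7934, 9048 and 9129.5 CPM in the low-score tumors. SPL_1616 and SPL_1611 were the lowest, and the groups did not overlap. The log2 difference was -2.67 ± 0.66 (adjusted p = 0.00894, 0.0984 with the block). CIITA, the transcription factor that switches on the class II genes, was at 15.1, 131, 92.6, 93.7 and 5.99 CPM and 413, 663, 738, 724 and 842 CPM and differed by -3.29 ± 0.72 (adjusted p = 0.00479, 0.0755 with the block). HLA-DOA, HLA-DOB and HLA-DMB, human names for mouse genes of peptide loading, differed by -3.29, -3.27 and -3.23 on the log2 scale. Of the 10 lower genes of this list, 1 kept its call with the mouse as a block.

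Of 21 tested genes of B cell receptor signaling, 17 were lower (median -1.08), beside 21% of all genes, and 9 of them also with the block. MALT1, a scaffold that links the receptor to NF-kB, was at 53.4, 93.3, 81.1, 60.3 and 29 CPM in the high-score and at 152, 373, 299, 206 and 364 CPM in the low-score tumors, without overlap (-2.10 ± 0.34, adjusted p = 0.00106). VAV2, a guanine nucleotide exchange factor, differed by -1.98 (0.0728 with the block). PRKCB, a protein kinase C, and PTPN6, the phosphatase SHP-1, differed by -2.13 and -1.93 (adjusted p = 0.0176 and 0.0114, 0.137 and 0.0961 with the block). Both were highest among the high-score tumors in MLN_1615, at 127 and 523 CPM, and without that library PRKCB differed by -3.00 and PTPN6 by -2.66.

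Germinal center genes, of B cells that mutate antibody genes in follicles, were lower for 8 of 12 (median -1.68), beside 21% of all genes. RGS13, which dampens chemokine signaling there, was at 0.0981, 7.15, 16.7, 4.65 and 0.352 CPM in the high-score and at 40.0, 30.6, 13.1, 109 and 38.5 CPM in the low-score tumors, and SPL_1615 held the most. MLN_1610 overlapped the low-score range. The log2 difference was -2.96 ± 1.03 (adjusted p = 0.0393, 0.153 with the block), and -3.84 without MLN_1610. It was not called without MLN_1609, MLN_1615, MLN_1616, SPL_1610 or SPL_1615 (adjusted p up to 0.093). GCSAM, a germinal center adaptor, differed by -2.72 (adjusted p = 0.0276, 0.14 with the block), by -3.32 without MLN_1610, and was not called without SPL_1615 (adjusted p = 0.0653). EFNB1, an ephrin ligand, and MYBL1, a MYB-family factor, differed by -2.60 and -2.24 (0.117 and 0.0707 with the block). The count of lower genes was 5 without MLN_1616 or without SPL_1615, and 1 with the block.

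Genes of B1, marginal zone and age-associated B cells split, with 7 of 16 lower and 2 higher, beside 21% and 22.4% of all genes. S1PR3, a sphingosine phosphate receptor of marginal zone B cells, was at 0.883, 3.98, 3.5, 2.62 and 0.294 CPM in the high-score and at 25.8, 26.7, 27.8, 45.9 and 40.7 CPM in the low-score tumors (-3.85 ± 0.59, adjusted p = 0.000829). DTX1, a Notch target, differed by -3.39 (adjusted p = 0.00473, 0.057 with the block; -4.14 without MLN_1610), and ZBTB32, a zinc finger repressor, by -3.24 (adjusted p = 0.00174). The 2 higher genes, chosen for mention after their values were seen, were SPN (CD43, at 2.32) and BHLHE41 (at 1.43), both known from B1 cells.

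Among genes of plasma cell identity other than the scoring genes, 20 of 27 tested were higher and 1 lower, beside 22.4% and 21% of all genes. IRF4, the transcription factor that plasma cells and myeloma cells need, was at 1324, 845, 814, 482 and 593 CPM in the high-score and at 169.8, 166, 167, 119 and 167 CPM in the low-score tumors. Every high-score tumor was above every low-score tumor, and SPL_1615 was the lowest. The log2 difference was 2.40 ± 0.26 (adjusted p = 0.000255), and quiescent B cells held 214 to 257 CPM, above the low-score tumors. TNFRSF17 (BCMA, the survival receptor of plasma cells) was at 9.03, 12.6, 16.3, 4.65 and 3.41 CPM in the high-score and at 1.98, 0.773, 0.638, 0.428 and 0.25 CPM in the low-score tumors, low in all libraries but without overlap (3.50 ± 0.63, adjusted p = 0.00183). SLAMF7 (CS1, a surface antigen of plasma cells) was at 235, 180.5, 112, 99.2 and 93.2 CPM against 55.6, 47.9, 54.1, 66.2 and 48 CPM (1.45 ± 0.25, adjusted p = 0.00156).

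SLPI, a secreted protease inhibitor, showed the largest difference of this list. It was at 38585, 4824, 7968, 9274 and 1254 CPM in the high-score and at 585, 419, 558, 236 and 77.4 CPM in the low-score tumors, with SPL_1616 far above the rest. The log2 difference was 5.09 ± 0.96 (adjusted p = 0.00229, 0.0865 with the block) and 3.99 without SPL_1616. CD28, a co-stimulatory receptor of T cells that plasma cells also carry, was at 20.6, 31, 61.4, 18.1 and 8.81 CPM against 6.79, 2.15, 3.74, 0.855 and 0.649 CPM (3.31 ± 0.73, adjusted p = 0.00481). MLN_1610, the highest for CD28, was also the highest for T cell markers, and their part in the result was not tested. CD38 is often used as an antigen of human plasma cells. It was at 174, 96.1, 123, 90.5 and 31.8 CPM in the high-score and 122, 234, 222, 193 and 250.3 CPM in the low-score tumors. Its groups overlapped and it was not called (-0.95 ± 0.37, adjusted p = 0.062), but 12 of 32 alternatives called it lower, among them DESeq2, limma-voom, counts summed per mouse (-1.10) and the fits without MLN_1609, SPL_1611 or SPL_1616 (-1.16, -0.72 and -1.23). Quiescent B cells held 233 to 247 CPM. The lower gene of the list was CXCR4, the receptor that retains plasma cells in bone marrow (-0.83, adjusted p = 0.0413, 0.102 with the block).

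The antibody chains differed by kind. IGKC, the kappa light chain, was at 130670, 69275, 102500, 77278 and 58145 CPM in the high-score and at 11653, 5444, 5969, 4097 and 3008 CPM in the low-score tumors, without overlap (3.90 ± 0.45, adjusted p = 0.000279). IGHM, the mu heavy chain of naive B cells and IgM, went the other way, at 384, 649, 1678, 881 and 970.1 CPM against 9119.9, 3441, 5779, 3235 and 4246 CPM (-2.46 ± 0.43, adjusted p = 0.00152), with quiescent B cells at 12781 to 15685 CPM. IGHA1 stands for the alpha heavy chain of IgA, because IGHA1 and IGHA2 share a single profile. It was at 1834, 254730, 194010, 9298 and 116500 CPM in the high-score and at 10636, 8613, 1337, 1291 and 1809 CPM in the low-score tumors. MLN_1616, MLN_1610 and SPL_1611 held the most, and SPL_1616 and MLN_1615 lay within the low-score range. The difference of IGHA1 was 4.62 ± 1.30 (adjusted p = 0.0159, 0.154 with the block). IGLC1, a profile that also carries the names IGLC2, IGLC3, IGLC7, IGLL1 and IGLL5 of lambda and surrogate light chains, was lower (-2.30 ± 0.49, adjusted p = 0.00417, 0.0608 with the block), but differed by 0.84 (not called) when the 7 highest were set against the 7 lowest tumors. Gamma and delta heavy chains were not analysed here.

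Secretory genes were higher almost throughout. Of 25 tested ER chaperones and folding enzymes 24 were higher (median log2 difference 2.68), of 18 genes of ER-associated degradation 17 (1.87), of 22 genes of ER translocation 22 (1.73), of 26 genes of N-glycosylation 22 (1.28) and of 30 genes of COPI, COPII and Golgi transport 30 (1.37). Over all genes tested, 22.4% were higher. With the mouse as a block the counts were 21, 13, 17, 17 and 23, beside 9.14% of all genes. XBP1, a scoring gene, is known to switch on many of these genes, so nothing is read from their number.

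Among chaperones, HSPA5 (BiP, the main HSP70 of the ER) was at 8197, 8990, 5629, 2675 and 4289 CPM in the high-score and at 1179, 886, 734, 621 and 743 CPM in the low-score tumors (2.88 ± 0.34, adjusted p = 0.000286). CRELD2, a secreted ER stress protein, was at 2480.5, 2862, 2076, 704 and 1049.7 CPM against 316, 107, 111, 63.3 and 62.5 CPM (3.83 ± 0.58, adjusted p = 0.000787). In both, no low-score tumor reached the high-score range, and MLN_1615 and SPL_1611 were the lowest of the high-score tumors. PDIA4, a disulfide isomerase, differed by 3.63 ± 0.50 (adjusted p = 0.000518), and SELENOM, a selenoprotein of the ER, by 4.31 ± 0.76 (adjusted p = 0.00159; 4.95 without MLN_1609).

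In the degradation pathway, SEL1L, the scaffold of the retrotranslocation complex, was at 7713, 5141, 3413, 2319 and 2365 CPM in the high-score and at 444, 260.3, 192, 152 and 129 CPM in the low-score tumors (4.20 ± 0.48, adjusted p = 0.000276). DERL3, a derlin of secretory cells, was at 1305, 1497, 860.1, 329 and 536 CPM against 124, 42.2, 34.9, 26.5 and 18.6 CPM (4.24 ± 0.63, adjusted p = 0.000725; 4.85 without MLN_1609). For both, MLN_1609 was the highest of the low-score tumors. EDEM1, which sorts misfolded glycoproteins, and ERLEC1, an ER lectin, differed by 3.24 and 3.14.

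In translocation and glycosylation, SSR4, a subunit of the translocon-associated complex, was at 1363, 1356, 996, 590.4 and 585 CPM against 162, 89.7, 102, 86 and 72.8 CPM (3.29 ± 0.32, adjusted p = 0.000244). SEC11C, a signal peptidase subunit, differed by 2.52, SRPRB, of the signal recognition particle receptor, by 2.42, and SSR2 by 2.33. DDOST, a subunit of the oligosaccharyltransferase that attaches glycans, was at 1244, 996, 926, 557 and 658 CPM against 264, 134, 175, 140.1 and 117 CPM (2.44 ± 0.28, adjusted p = 0.000276). GMPPB, which makes GDP-mannose, and the transferase subunits RPN2 and RPN1 differed by 2.23, 2.0 and 1.85. In transport, KDELR3, a receptor that returns chaperones to the ER, was at 102, 82.4, 73.3, 26.2 and 29.2 CPM against 4.76, 1.93, 2.55, 0.374 and 0.849 CPM (4.92 ± 0.70, adjusted p = 0.000587), while ARFGAP3, SEC24D and LMAN1 differed by 3.23, 3.13 and 2.72.

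The promoters of chaperone genes are known for the ER stress response element, which ATF6 and XBP1 bind with NF-Y. The letters CCAAT followed by any 9 bases and CCACG were searched on both strands from 250 bases before to 50 after the start of each gene in RefSeq (build GRCm38.p6). They were found in 39 of 32851 windows (0.119%), in 8 of 23 matched chaperone genes, in 2 of 14 of ER-associated degradation, in 1 of 22 of N-glycosylation, and in none of 15 of translocation, 28 of transport or 17 of mature B cell identity. Of 15 tested genes with the motif, 11 (73.3%) were higher and 2 lower, beside 22.9% higher of 8121 tested genes matched to a window. These genes overlap the lists above, and XBP1, which binds the element, is a scoring gene, so nothing is read from this share. Stretches around the motif are shown for 4 chaperones and for the degradation genes Derl3 and Syvn1, chosen after their values were seen, as the letters that these higher genes share, with the motif in capitals (its reverse complement where it lies on the other strand).
Hspa5 (chr2:34772010-34772058, plus strand): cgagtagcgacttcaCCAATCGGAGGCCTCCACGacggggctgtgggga
Hsp90b1 (chr10:86705518-86705671, minus strand): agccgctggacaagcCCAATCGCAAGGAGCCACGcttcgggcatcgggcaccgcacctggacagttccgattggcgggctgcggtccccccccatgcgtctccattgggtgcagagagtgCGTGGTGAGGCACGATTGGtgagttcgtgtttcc
Creld2 (chr15:88819505-88819553, plus strand): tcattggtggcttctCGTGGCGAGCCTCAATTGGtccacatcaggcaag
Pdia6 (chr12:17266476-17266524, plus strand): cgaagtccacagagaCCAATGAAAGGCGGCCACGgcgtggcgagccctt
Derl3 (chr10:75893227-75893275, plus strand): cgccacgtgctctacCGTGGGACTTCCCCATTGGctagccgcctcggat
Syvn1 (chr19:6046517-6046565, plus strand): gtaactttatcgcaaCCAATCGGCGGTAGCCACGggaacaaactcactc

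The motif lay 65 bases before the start in Hspa5, 126 in Creld2, 98 in Pdia6, 156 in Derl3 and 44 in Syvn1, and Hsp90b1 held it at 212 and at 107 bases. HSP90B1 (GRP94, an HSP90 of the ER) was at 21802, 18832, 12426, 4454 and 6268 CPM in the high-score and at 2398, 1049, 1172, 695 and 869 CPM in the low-score tumors (3.40, adjusted p = 0.000868). PDIA6, a disulfide isomerase, differed by 2.68 and SYVN1, the ubiquitin ligase of the SEL1L complex, by 1.34 (0.0526 with the block). The match is a description of letters, not evidence of binding.

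Stress sensors and ATF4 targets, the amino acid response, were higher for 17 of 23 tested (median 1.38), beside 22.4% of all genes. With the block 5 of them were higher. ERN1 (IRE1, the sensor that splices XBP1) was at 616, 257, 204, 189 and 345 CPM in the high-score and at 65.5, 38.5, 25.8, 15.7 and 14.5 CPM in the low-score tumors (3.38 ± 0.52, adjusted p = 0.000832). ASNS, asparagine synthetase, was at 466, 183, 193, 123 and 259 CPM against 38.8, 20.5, 26.9, 28.7 and 11.2 CPM (3.34 ± 0.43, adjusted p = 0.000376). In both, SPL_1616 was the highest and the groups did not overlap. CHAC1, a glutathione-degrading ATF4 target, differed by 4.71 (adjusted p = 0.00105, 0.0728 with the block; 4.0 without SPL_1616). TRIB3, a pseudokinase, differed by 2.58 (adjusted p = 0.0254, 0.404 with the block) and by 1.62 without SPL_1616. TRIB3 overlapped between the groups and was not called without MLN_1609, SPL_1610, SPL_1612, SPL_1615 or SPL_1616 (adjusted p up to 0.0713). Activated B cells held 239.8 to 261 CPM of ASNS and 65.6 to 73.3 CPM of CHAC1, both above the low-score tumors. Their CHAC1 was also above every high-score tumor (5.38 to 55.7 CPM), as was their TRIB3 (154 to 181 against 1.11 to 19.8 CPM). Their ASNS was above MLN_1616, MLN_1610 and MLN_1615 and below SPL_1616. ERN1 went the other way, at 14.2 to 19.1 CPM in activated B cells, below every high-score tumor.

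**Figure D3:**
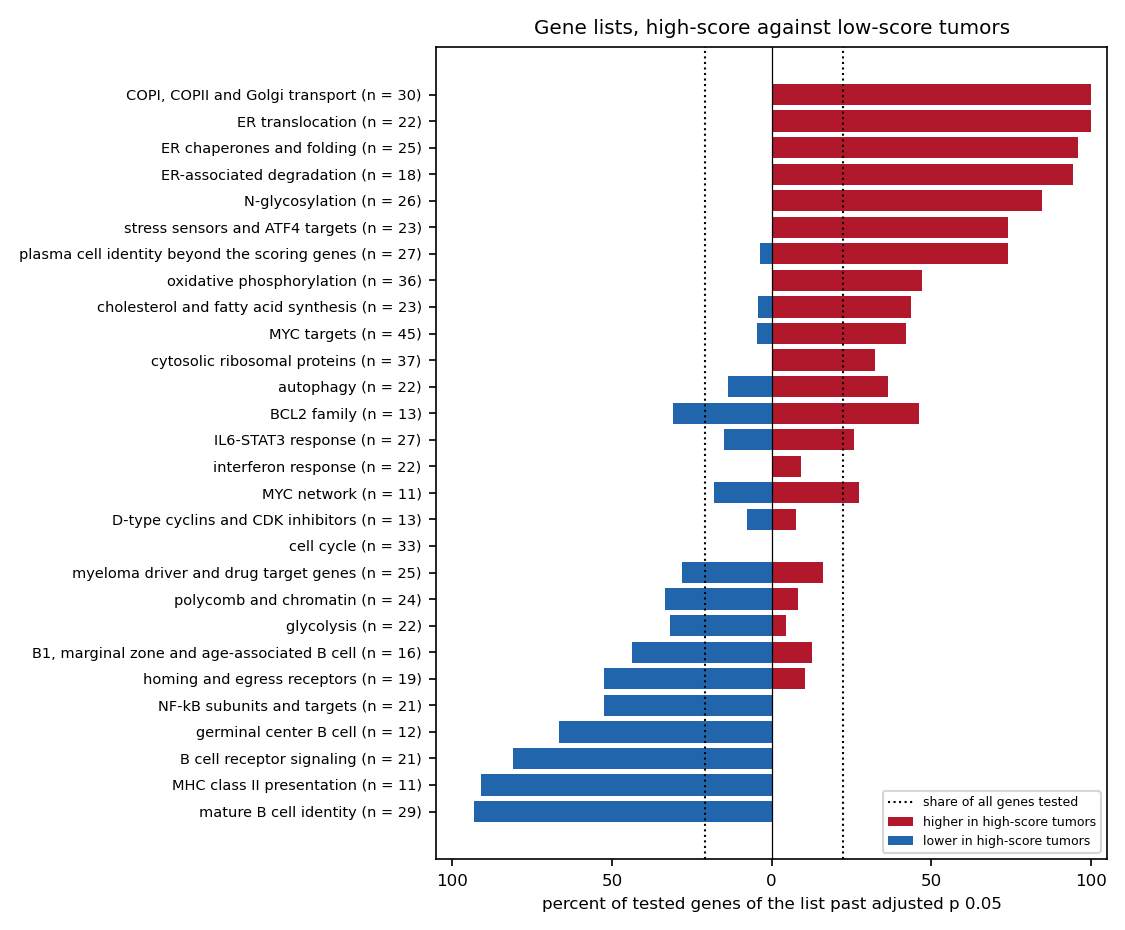
Percent of the tested genes of each list that were higher (red, to the right) or lower (blue, to the left) in the high-score tumors at an adjusted p of 0.05 by edgeR, for lists with at least 10 tested genes. Dotted lines give the share of all genes tested, 22.4% higher and 21% lower. All 22 translocation and all 30 transport genes are higher and 27 of 29 genes of mature B cell identity are lower, while no cell cycle gene is called.

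MYC, the transgene's namesake and a driver of growth, was at 2063, 1377, 1715, 1129.8 and 1232 CPM in the high-score and at 412, 422, 419.7, 314 and 443 CPM in the low-score tumors. The groups were far apart, and SPL_1615 lay below the other 4 low-score tumors. The log2 difference was 1.95 ± 0.19 (adjusted p = 0.000244), with 61.4 to 75.9 CPM in quiescent and 215 to 233 CPM in activated B cells. The table does not separate transgenic from endogenous transcripts. Of 45 tested MYC targets, 19 were higher and 2 lower (median 0.34), beside 22.4% and 21% of all genes, and 3 were higher with the block. IPO4, an importin, was at 378, 347, 279, 154 and 202 CPM against 99.2, 66.8, 69.5, 72.9 and 74.2 CPM (1.87 ± 0.24, adjusted p = 0.000354), while SRM, spermidine synthase, and GNL3, a nucleolar GTPase, differed by 1.62 and 1.25. ENO1, the glycolytic enolase, was lower (-1.02, adjusted p = 0.00548, 0.103 with the block). The widely used targets NCL and NPM1, nucleolar proteins that were chosen after their values were seen, differed by 0.19 and -0.01 (adjusted p = 0.294 and 0.979) and were not called. Among MYC's partners MXI1, an antagonist, was higher (1.79, adjusted p = 0.00195), MLX was higher (0.77, 0.0576 with the block), and MYCL was lower (-1.03, adjusted p = 0.0335, 0.231 with the block). MYCL was not called without MLN_1616, SPL_1612, SPL_1615 or SPL_1616 (adjusted p up to 0.0713).

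Of the cell cycle genes edgeR called none of 33 with all 10 libraries. MKI67, the Ki-67 antigen of cycling cells, was at 416, 523, 567, 541 and 1084 CPM in the high-score and at 738, 289, 477, 669 and 369 CPM in the low-score tumors. The groups overlapped, both far above the 23.1 to 25.8 CPM of quiescent B cells (0.37 ± 0.33, adjusted p = 0.392). TOP2A, topoisomerase II, was at 107, 221, 317, 229 and 437 CPM against 431, 186, 217, 491 and 243 CPM (adjusted p = 0.721). Of these 33 genes 2 were at an unadjusted p under 0.05 in edgeR, and DESeq2 and limma-voom called 1 each. Without SPL_1611, which held the most MKI67, 8 of the 33 were lower, and without MLN_1615 1 was higher. Among D-type cyclins, which start the cycle, CCND2 was at 1119, 911, 933, 713 and 636 CPM in the high-score and at 247, 149, 139, 93.3 and 187 CPM in the low-score tumors, without overlap (2.44 ± 0.27, adjusted p = 0.000255). CCND1 (-0.39 ± 0.76, adjusted p = 0.713) and CCND3 (-0.40 ± 0.41, adjusted p = 0.473) were not called, although CCND3 was lower without SPL_1611 (-0.96) and CCND1 differed by -1.29 without MLN_1615. CDKN2D, an inhibitor of CDK4 and CDK6, was lower (-1.16, adjusted p = 0.00476, 0.0657 with the block).

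In the interleukin-6 pathway, IL6R, the receptor chain, was at 97.3, 48.2, 79.8, 158 and 90.2 CPM in the high-score and at 73, 51.4, 46.4, 16.1 and 25.7 CPM in the low-score tumors. The groups overlapped, MLN_1615 was the highest and SPL_1615, from the same mouse, the lowest. IL6R differed by 1.21 ± 0.43 (adjusted p = 0.0428, 0.077 with the block), and when single libraries were left out it was called without MLN_1609 or MLN_1616 but not without any of the others (adjusted p up to 0.107). Of 27 tested genes of the IL6-STAT3 response 7 were higher and 4 lower, shares near those of all genes, or 2 and 1 with the block, and without MLN_1615 the lower count was 7. FOS, an immediate early factor, was at 428, 475, 195, 712 and 471 CPM against 69.6, 68.2, 40.0, 30.5 and 21.6 CPM, far apart (3.37 ± 0.44, adjusted p = 0.000389). VEGFA, an angiogenic factor, differed by 2.94 (adjusted p = 0.0191, 0.119 with the block; 4.07 without MLN_1611), and CCR1, a chemokine receptor, by -2.02 (adjusted p = 0.0409, 0.101 with the block; -1.08 and not called without MLN_1611). CCR1 was also not called without MLN_1610, MLN_1615, MLN_1616 or SPL_1616 (adjusted p up to 0.0854). STAT3 itself, picked after its values were seen, was at 295, 216, 293, 326 and 212 CPM in the high-score and 241, 332, 259, 262 and 291 CPM in the low-score tumors and was not called (adjusted p = 0.985).

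Survival genes of the BCL2 family moved in both directions, 6 of 13 higher and 4 lower, beside 22.4% and 21% of all genes. With the block 3 were higher and all 4 lower calls were lost. BCL2, which blocks mitochondrial death, was at 9.32, 16.1, 33.8, 43.5 and 5.52 CPM in the high-score and at 77.4, 103, 101, 92.6 and 115 CPM in the low-score tumors, without overlap (-2.13 ± 0.50, adjusted p = 0.00654, 0.0792 with the block). BCL2L1 (BCL-XL), with the same role, was at 188, 147, 139, 101 and 129.7 CPM against 22.5, 55, 18, 13.8 and 10.2 CPM, higher in every high-score tumor (2.60 ± 0.44, adjusted p = 0.00128). MCL1, on which plasma cells are known to depend, was at 775, 757, 950.2, 829 and 495 CPM against 758, 1292, 886, 793 and 969 CPM and was not called (-0.26 ± 0.20, adjusted p = 0.311). The death-promoting BCL2L11 (BIM) and BBC3 (PUMA) were higher by 2.05 and 2.0 (adjusted p = 0.00113 and 0.000371).

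NF-kB subunits and targets were lower for 11 of 21 tested (median -1.21), beside 21% of all genes. With the block 3 of them were lower, and without MLN_1615 17 were. CD83, an activation antigen, was at 13.6, 74.2, 114, 104 and 7.75 CPM in the high-score and at 329, 426, 556, 588 and 553 CPM in the low-score tumors (-2.93 ± 0.67, adjusted p = 0.00605, 0.0802 with the block). REL, the subunit typical of B cells, differed by -2.24 (0.0585 with the block) and NFKBIE, an inhibitor, by -2.43 (0.0584 with the block; -3.04 without MLN_1615). TNFAIP3 (A20, a brake on NF-kB) was at 12.2, 14.7, 26.3, 49.1 and 15.6 CPM against 48.9, 630.4, 55.6, 56.5 and 55.5 CPM, and MLN_1611 alone was far above the rest. Its difference of -2.79 ± 0.87 (adjusted p = 0.025, 0.283 with the block) was -1.20 without MLN_1611, and it was not called without MLN_1616 or SPL_1616 (adjusted p up to 0.058).

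Genes known as drivers or drug targets of myeloma were higher for 4 of 25 and lower for 7, beside 22.4% and 21% of all genes, and for 3 and 1 with the block. IKZF3 (Aiolos, a target of lenalidomide) was at 54.9, 123, 106, 113 and 6.46 CPM in the high-score and at 351, 500.5, 529, 561 and 642 CPM in the low-score tumors (-2.64 ± 0.60, adjusted p = 0.00548, 0.0618 with the block). MAFA, a MAF-family factor, was low in all libraries, at 0.589, 0.369, 0.372, 0.655 and 0.352 CPM against 2.6, 9.92, 12.2, 3.42 and 13.4 CPM (-4.09 ± 0.56, adjusted p = 0.000469). SDC4, a syndecan, differed by -2.52 (adjusted p = 0.0012, 0.0503 with the block). Receptors of homing and egress were lower for 10 of 19 and higher for 2 (1 to 3 when single libraries were left out), with 5 lower with the block. CCR6, a chemokine receptor of B cells, was at 17.8, 20.9, 22.8, 11.4 and 3.99 CPM against 51.3, 104, 100, 86.8 and 129.6 CPM (-2.59 ± 0.42, adjusted p = 0.00112). S1PR1, which lets lymphocytes leave lymphoid organs, and GPR183, which positions B cells at the follicle edge, differed by -2.88 and -2.71 (0.0681 and 0.0796 with the block). Without MLN_1610 these 2 values were -3.49 and -3.44.

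The next lists stand beside 22.4% higher and 21% lower over all genes tested, or 9.14% and 5.08% with the block. Of 36 tested genes of oxidative phosphorylation 17 were higher (median 0.32), and 1 with the block. The count of 17 fell by over 1.5 times without MLN_1611, SPL_1610 or SPL_1612, to 11 at the lowest. NDUFA1, a subunit of complex I, was at 238, 208, 187, 123 and 98.2 CPM against 46.3, 27.3, 26.6, 38.3 and 25.9 CPM (2.42 ± 0.27, adjusted p = 0.000258), while COX6A1, NDUFV1 and NDUFA2 differed by 0.85, 0.74 and 0.73 and lost their calls with the block. Glycolysis genes were lower for 7 of 22, none with the block (5 to 9 when single libraries were left out). PFKFB3 and SLC2A1, a glycolytic regulator and a glucose transporter, were highest in MLN_1611, and their differences of -2.23 and -1.51 were -1.21 and -0.87 without it. PFKFB3 was not called without MLN_1616 or SPL_1616 (adjusted p up to 0.0543). LDHB, a lactate dehydrogenase, was higher (2.68, adjusted p = 0.0247, 0.106 with the block), but not called without MLN_1611, SPL_1615 or SPL_1616 (adjusted p up to 0.059). Of 24 polycomb and chromatin genes 2 were higher and 8 lower, and with the block 1 was higher and all 8 lower calls were lost. BMI1, a polycomb subunit, was at 828, 1397, 608, 281 and 389 CPM in the high-score and at 143, 106, 127, 97.8 and 87.4 CPM in the low-score tumors (2.67 ± 0.40, adjusted p = 0.000709), and KMT2A and HDAC1 differed by -1.25 and -1.02 on the log2 scale (both not called with the block). Cytosolic ribosomal proteins were higher for 12 of 37 (median 0.34), and for 21 without SPL_1611, for 10 without MLN_1615 and for 3 to 7 without any other library. All 12 calls were lost with the block.

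The 10 largest rises without overlap were SERPING1, TMEM59L, COLCA2, CLDN9, SLC7A3, ALDH1L2, CNKSR1, CSMD1, C6orf15 and CA11, with log2 differences from 7.17 to 5.38. SERPING1, the C1 inhibitor of complement, was at 4107, 165, 63.7, 120.2 and 172 CPM in the high-score and at 3.31, 20.6, 4.79, 4.01 and 0.499 CPM in the low-score tumors, with SPL_1616 far above the rest. It differed by 7.17 ± 1.62 (adjusted p = 0.00567, 0.0766 with the block) and by 4.34 without SPL_1616. ALDH1L2, a mitochondrial folate enzyme, was at 194, 21.6, 22.8, 22.5 and 21.3 CPM against 1.23, 1.93, 1, 0.535 and 0.649 CPM (5.75 ± 0.88, adjusted p = 0.000816; 4.39 without SPL_1616), and SLC7A3, a transporter of cationic amino acids, was at 166, 14.3, 15.2, 17.1 and 24.1 CPM against 0.882, 1.33, 1, 0.695 and 0.499 CPM (5.78 ± 0.88, adjusted p = 0.000829; 4.37 without SPL_1616). In these 3 genes the other 4 high-score tumors lay far below SPL_1616 and above every low-score tumor. Activated B cells held 75.1 to 93.6 CPM of SLC7A3, above those 4 tumors, and 20.5 to 27.3 CPM of ALDH1L2, around their level. They held at most 0.421 CPM of SERPING1. Without SPL_1616 the differences were 4.50 for TMEM59L, 3.58 for COLCA2, 4.63 for CLDN9, 4.85 for CSMD1, 3.43 for C6orf15 and 4.31 for CA11. Without MLN_1609 they were 6.84 for CLDN9 and 6.49 for CSMD1, and without MLN_1611 8.17 for SERPING1. CNKSR1, a scaffold of RAS signaling, was at 19.8, 11, 5.28, 1.44 and 11.6 CPM against 0.353, 0.215, 0.365, 0 and 0.0499 CPM (5.61 ± 0.93, adjusted p = 0.00118).

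The 10 largest falls were EXOSC6, CDH17, DIRAS2, TMEFF1, MAFA, OSBPL6, ACKR2, PTPN14, HS3ST1 and CR2. EXOSC6, a subunit of the RNA exosome, is listed at 0 in all 5 high-score tumors and at 12.2, 12.5, 13, 9.46 and 16.9 CPM in the low-score tumors. It is also listed at 0 in the activated B cells and at a median of 10.6 CPM in quiescent B cells. Between the groups it is at 0 in MLN_1613, MLN_1614 and SPL_1614 and at 2.24 CPM in SPL_1613. Whether these values of 0 come from the quantification of reads was not tested. CDH17, a cadherin of B cells and intestine, was at 0.392, 1.03, 0.893, 0.393 and 0.0587 CPM in the high-score and at 6.13, 10.3, 10.6, 12.4 and 11.1 CPM in the low-score tumors (-4.15 ± 0.57, adjusted p = 0.000484). PTPN14, a phosphatase, was at 2.45, 3.47, 2.16, 1.9 and 1.17 CPM against 22.4, 29.1, 49.3, 36.2 and 36.9 CPM (-3.92 ± 0.32, adjusted p = 0.000228), and ACKR2, a decoy chemokine receptor, at 0.0981, 0.737, 0.521, 0.786 and 0.294 CPM against 7.1, 9.14, 7.89, 8.07 and 7.94 CPM (-3.96 ± 0.45, adjusted p = 0.000269). In these 3 genes the groups were far apart. OSBPL6 differed by -4.04 (0.088 with the block; -6.14 without MLN_1610), and DIRAS2, TMEFF1 and HS3ST1 by -4.14, -4.12 and -3.92.

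Mice 1610, 1611 and 1615 allow the comparison within an animal. The high-score tumor was the MLN tumor in mice 1610 and 1615 and the spleen tumor in mouse 1611, with scores of 9.76 and 5.84, 9.56 and 6.39, and 9.32 and 6.99. Of the 2439 higher genes 2063 were higher in the high-score tumor of all 3 mice, and of the 2290 lower genes 2220 were lower in all 3, but these 6 libraries are part of the fit that made the calls. All 29 genes of mature B cell identity were lower in the high-score tumor of each mouse, with medians of -2.60, -5.52 and -2.87 log2 units in mice 1610, 1611 and 1615, and all 30 transport genes were higher. Over all genes tested, 32.4% were lower and 23.9% higher in the high-score tumor of all 3 mice. PAX5 was 8.53-fold lower in the high-score tumor of mouse 1610, 140-fold lower in mouse 1611 and 10.3-fold lower in mouse 1615. MYC was 3.87-fold, 2.92-fold and 3.6-fold higher, and CCND2 4.99-fold, 4.26-fold and 7.63-fold higher. Cell cycle genes had no common direction, with medians of 0.16, 1.46 and -1.10. In mouse 1616, with both tumors in the high group, PAX5 was at 23.5 CPM in spleen and 177 CPM in MLN, and IGHA1 at 1834 and 254730 CPM.

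**Figure D4:**
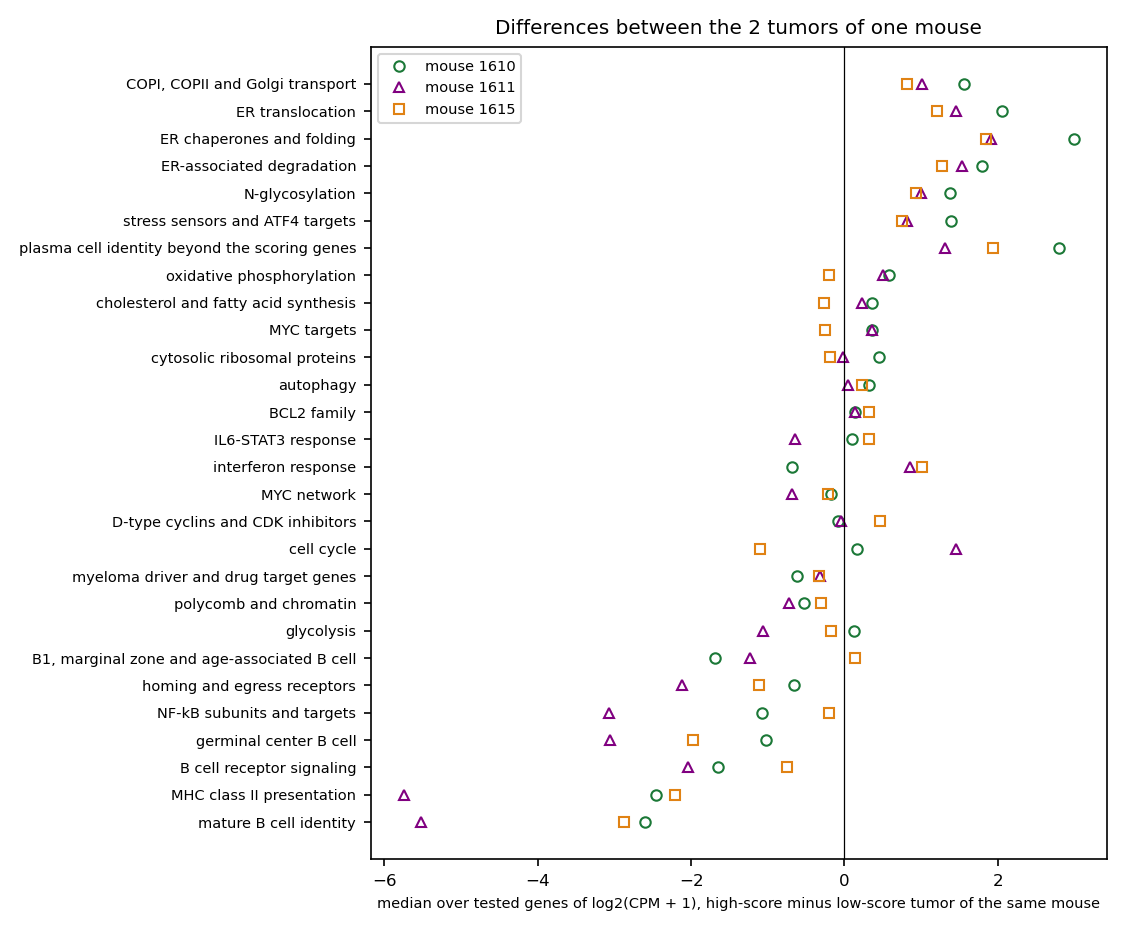
Median over the tested genes of each list of the difference in log2(CPM + 1) between the high-score and the low-score tumor of the same mouse, for mice 1610 (circles), 1611 (triangles) and 1615 (squares). Secretory lists lie right of 0 and mature B cell, MHC class II and receptor lists left of 0 in all 3 mice, with mouse 1611 at -5.52 for mature B cell identity. MYC targets, cell cycle and oxidative phosphorylation lie on both sides.

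The 4 tumors between the groups lay mostly between them. For 4094 of the 4729 called genes (86.6%) the median of these 4 lay between the 2 group means. Taken singly, the share of called genes was 70.5% in MLN_1613, 88% in MLN_1614, 70.2% in SPL_1613 and 70.3% in SPL_1614. PAX5 was at 865 CPM in MLN_1613, 736 CPM in MLN_1614 and 759 CPM in SPL_1613, near the low-score tumors, but at 84.8 CPM in SPL_1614, within the high-score range. Setting the 7 highest against the 7 lowest tumors puts MLN_1613 and MLN_1614 in the high and SPL_1614 and SPL_1613 in the low group. In that comparison 2103 genes were called, 1612 higher and 491 lower. Of the mature B cell genes 1 was then lower, and of receptor signaling genes 4, while 24 chaperones and 30 transport genes were higher as before. MYC was at 714, 816, 611 and 492 CPM in MLN_1613, MLN_1614, SPL_1614 and SPL_1613, between the groups in all 4.

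Markers of other cells were present in varying amounts. Macrophage markers summed to 621 to 3508 CPM in the high-score and 312 to 2220 CPM in the low-score tumors, beside 51.5 to 325 CPM in quiescent B cells, and 1 of 14 was called. That gene, C1QB of complement, was at 1951, 1010.1, 330.3, 915 and 1398 CPM against 251, 108, 152, 37.4 and 34.1 CPM (3.32 ± 0.66, adjusted p = 0.00304), while its partners C1QA and C1QC were not called (0.50 and 0.74). T cell markers summed to 55.3 to 1006 CPM in the high-score and 199 to 294 CPM in the low-score tumors. Quiescent B cells held 277 to 301 CPM of this sum, near the low-score tumors, so it is not read as an amount of T cells. Of 16 tested T cell markers, 6 were higher and 1 lower, beside 22.4% and 21% of all genes, with a median log2 difference of 2.70. In the high-score tumor of all 3 paired mice 12 were higher and 1 lower, beside 23.9% and 32.4% of all genes. MLN_1610 held the most, and without it CD3E differed by 1.67, CD3D by 1.79 and TRBC1 by 1.37, none of these 3 called. The count of higher T cell markers was 1 without MLN_1610, MLN_1611, SPL_1610, SPL_1612 or SPL_1615, 3 without MLN_1609 and 10 without MLN_1616 or SPL_1611. Neutrophil markers (24.5 to 2812 against 15.5 to 1502 CPM), erythroid markers (15.5 to 4025 against 134 to 1384 CPM) and stromal markers (10.1 to 451 against 10.3 to 167 CPM) had 0 called of 10, 9 and 9 by edgeR, with 0, 0 and 1 at an unadjusted p under 0.05, and DESeq2 called 1 stromal gene. Without SPL_1611, the library with the most erythroid RNA, 4 erythroid markers were lower. HBA1, a hemoglobin chain, was at 77.3, 36.3, 10.1, 27.6 and 1987 CPM in the high-score and 847, 80.4, 727, 164 and 101 CPM in the low-score tumors, and SLC4A1, the anion exchanger of red cells, at 34.7, 17, 1.64, 13.6 and 1064 CPM and 305, 32.5, 347, 30.2 and 42.2 CPM. Without MLN_1611 3 stromal markers were higher and 1 lower, and 1 was lower without SPL_1610 or SPL_1611. SPL_1614, between the groups, had the most macrophage markers (4675 CPM) and 2351 CPM of erythroid markers. Dendritic cell markers had 2 lower genes of 11, IRF8 (-2.89) and FLT3 (-1.49), of which IRF8 is also made by B cells, and TCF4 was higher (0.80). TCF4 was not called without MLN_1609, MLN_1611, SPL_1610, SPL_1612, SPL_1615 or SPL_1616 and FLT3 not without SPL_1615 (adjusted p up to 0.0656), and 6 genes were lower without MLN_1615. The part of these cells in the gene differences was not tested.

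**Figure D5:**
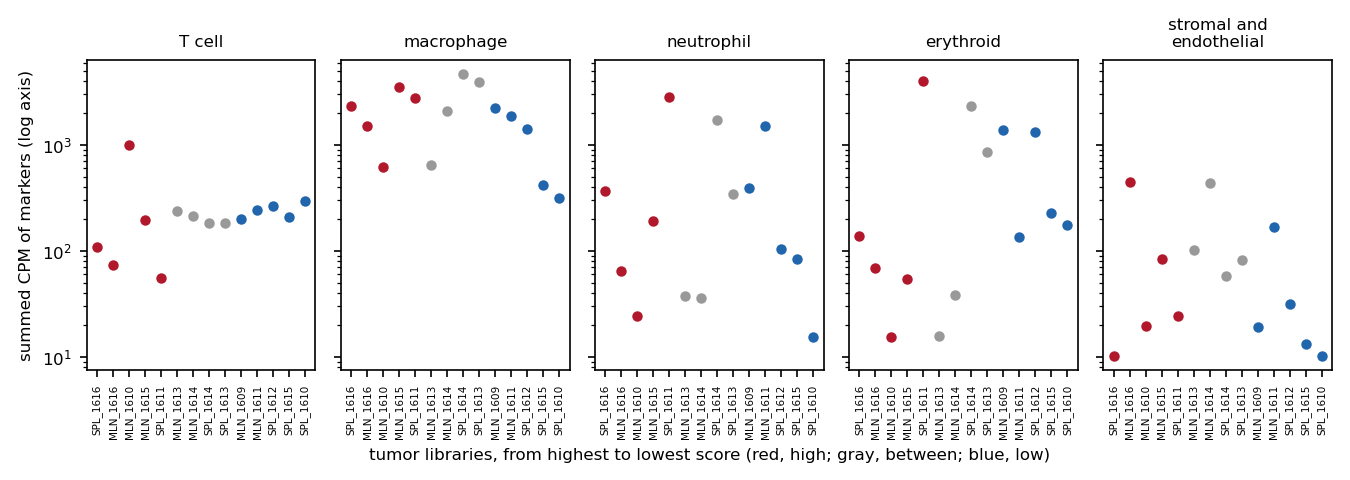
Summed CPM of marker genes of T cells, macrophages, neutrophils, erythroid cells, and stromal and endothelial cells in the 14 tumor libraries, on a log axis, ordered by score. T cell markers peak at 1006 CPM in MLN_1610 and erythroid markers at 4025 CPM in SPL_1611, and the groups overlap in all 5 panels. Quiescent B cells, not shown, hold 277 to 301 CPM of the T cell sum, which is not an amount of T cells.

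EPCAM and CDH1, adhesion proteins of epithelium that plasma cells also make, were higher. EPCAM was at 983, 445, 532, 341 and 234 CPM in the high-score and at 36.6, 22.8, 27.6, 9.62 and 6.59 CPM in the low-score tumors (4.66 ± 0.58, adjusted p = 0.000346), and CDH1 differed by 4.73 ± 0.84 (adjusted p = 0.00171, 0.0569 with the block; 5.39 without MLN_1609). The intestinal genes VIL1 and CDX2 reached 0.172 and 0 CPM at most in the 10 libraries, FABP1 0.773 and FABP2 1.20 CPM. DDX3Y, a Y-linked gene, was at 77.7 to 183 CPM in 9 of the 10 libraries and at 1.82 CPM in SPL_1612, and without SPL_1612 4154 genes were called. The tumors between the groups held 0.893 to 19.8 CPM of DDX3Y. Quiescent B cells held 192 to 214 CPM and activated B cells 0.0421 to 0.234 CPM, so the control groups also differed in this gene.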

How the data were processed

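RNA of magnetically selected cells was purified with an RNeasy kit and made into stranded TruSeq total RNA libraries, per the labels' protocols. The deposited values are estimated counts per gene, with human gene symbols given to mouse genes. Trim Galore 0.4.0, DESeq2 and build GRCm39 are named per the submitters' processing notes, while the tools that quantified reads and assigned human symbols were not named in the sources used here. Of 61651 entries, 21282 held values; entries with identical values in all libraries were merged, leaving 15881 profiles above 0, of which 468 carry more than 1 name. Merged totals were 13328900 to 25045800 per library.

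Estimated counts were rounded and tested with edgeR 4.0.16 (quasi-likelihood, TMM scaling, R 4.3.3) on the 10 libraries, for profiles with at least 1 CPM in 5 libraries, without the 5 scoring genes. Adjusted p-values are Benjamini-Hochberg over all 10882 profiles, and the SE is the log2 difference over the root of F, which is approximate. Displayed CPM are TMM-scaled over all 23 libraries. Alternatives used limma 3.58.1 and DESeq2 1.42.0, other filters, scalings and score cuts, and each library or mouse left out. The test was run first on simulated data.

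The named genes are a fixed set of B cell, plasma cell and myeloma genes, the 10 largest non-overlapping rises and falls with a mean of at least 5 CPM in the higher group, and up to 4 members of each list with the largest called differences; some of them are not reported here. Others (HSPA5, HSP90B1, PDIA6, SYVN1, SPN, BHLHE41, STAT3, C1QA, C1QC, CXCR4, CTSS, CD72, VPREB3, NCL, NPM1 and the intestinal and Y-linked genes) were chosen after their values were seen. Members and lists were chosen with earlier results of these data known. Lists are named where their counts are given.

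A shared number marks tumors of a single mouse, per the series' design text. Deviations from the tissue mean correlated between the tumors of a mouse at -0.51 to 0.75 over 6 mice, a check that does not weigh on the pairing. Whether each control library is a separate animal is not stated in the labels, so the spread of the control values may be technical; the controls entered no test. Promoter windows came from RefSeq (GRCm38.p6), without conversion of coordinates.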

Additional observations from a re-analysis of the deposited data

Results flagged for a closer look

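In 22 of 316 groups of 5 tumors (each named gene in each score group), a single library lay far from the other 4 by Dixon's ratio of gap to range, above its critical value of 0.71 for log2(CPM + 1). Chance gives about 1 in 20 such groups, and these values are given without a reason.

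SPL_1616 stood apart among the high-score tumors for 4 genes, with SERPING1 at 4107 CPM (63.7 to 172 in the others), COLCA2 at 120 CPM (3.01 to 5.46), SLC7A3 at 166 CPM (14.3 to 24.1) and ALDH1L2 at 194 CPM (21.3 to 22.8). SPL_1611 was low for IKZF3 at 6.46 CPM (54.9 to 123) and DIRAS2 at 0.47 CPM (1.56 to 2.16), and MLN_1610 was high for OSBPL6 at 1.49 CPM (0 to 0.294).

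MLN_1609, the low-score tumor nearest the boundary, stood apart among the low-score tumors for 8 genes. MS4A1 was at 762 CPM there (1380 to 1726 in the others) and CDH17 at 6.13 CPM (10.3 to 12.4), while 6 secretory and growth genes were high. These were SRPRB at 81.4 CPM (47.2 to 52.7), GMPPB at 33.7 CPM (22.4 to 24.9), RPN1 at 368 CPM (228 to 245), IPO4 at 99.2 CPM (66.8 to 74.2), SRM at 153 CPM (82.4 to 94.7) and GNL3 at 194 CPM (139 to 152).

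MLN_1611 was high for TNFAIP3 at 630 CPM (48.9 to 56.5), PFKFB3 at 507 CPM (65.1 to 101), CCR1 at 127 CPM (15.7 to 25.2) and the stromal genes COL3A1 at 56.8 CPM (0.441 to 1.82) and DCN at 35.2 CPM (0.0882 to 1.37). SPL_1615 was low for IRF4 at 119 CPM (166 to 170) and MYC at 314 CPM (412 to 443).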

How the results depend on the processing

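With the mouse as a replicate block 1548 genes were called (995 higher, 553 lower) in place of 4729, with the score as a number over 14 tumors and the block 1834 (1283 and 551), and with 7 against 7 tumors 2103 (1612 and 491). The other settings gave 4345 to 5228, and leaving out 1 library or mouse gave 3447 to 5152. The block rests on 3 mice, and the cause of the lower counts was not tested. Of 158 named genes 141 were called. Of these, 56 kept the call in all 32 alternatives, 70 kept and 71 lost it with the block, and 15 lost it without 1 library. Among the 141 called genes the direction turned for 1, IGLC1, which differed by 0.13 per unit of score over 14 tumors and by 0.84 with 7 against 7, not called in either. Among the 17 genes that were not called it turned for 15, and 2 of these were then called. HBA1 differed by -2.78 with 4 against 4 tumors, -3.30 without SPL_1611 and -3.56 without mouse 1611, and SLC4A1 by -3.14 and -3.40 in the last 2 settings, and both were called there. Over all settings that leave out a library or mouse, HBA1 ranged from -3.56 to 0.92 and SLC4A1 from -3.40 to 1.35. Limits are the groups cut from the same data, 5 libraries a group from 6 mice, shared gene names, and no separation of cell number from RNA per cell. Depth was at least 13328900 counts in each library, and genes under 1 CPM in most libraries were not tested.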

Other observations

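Genes of lipid synthesis and autophagy were not part of the comparisons above. Of 23 tested genes of cholesterol and fatty acid synthesis 10 were higher and 1 lower in the high-score tumors by edgeR, beside 22.4% and 21% of all genes, and 2 and 1 with the mouse as a block. INSIG1, a sensor of ER sterol, differed by 1.73 (adjusted p = 0.000228) and ELOVL6, a fatty acid elongase, by 1.36 (adjusted p = 0.00859), while HMGCS1, an early enzyme of sterol synthesis, was lower (-0.91, adjusted p = 0.000276). Of 22 autophagy genes 8 were higher and 3 lower, or 4 and 1 with the block. WIPI1, which binds the forming autophagosome, differed by 3.86 (adjusted p = 0.00122) and GABARAPL1, a protein of its membrane, by 2.61 (adjusted p = 0.00258). TFEB, a transcription factor of lysosomal genes, was lower (-1.61, adjusted p = 0.00372).

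Of 22 tested interferon response genes 2 were higher, a smaller share than the 22.4% of all genes, and 1 with the block. BST2 (tetherin, which holds budding virus at the membrane) was at 178, 229, 266, 157 and 288 CPM in the high-score and at 68.1, 59.1, 48.1, 26.1 and 30.6 CPM in the low-score tumors, without overlap (2.32 ± 0.30, adjusted p = 0.000387). ISG20, an exonuclease, overlapped between the groups (2.46 ± 0.59, adjusted p = 0.00767, 0.0538 with the block).

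MLN_1615 differed from the other high-score tumors in FCRL5, an Fc receptor-like protein, and ITGAX (CD11c), both chosen after their values were seen. FCRL5 was at 4.81, 4.65, 2.01, 491 and 1.47 CPM in SPL_1616, MLN_1616, MLN_1610, MLN_1615 and SPL_1611, and at 22.6 to 104 CPM in the low-score tumors. ITGAX was at 4.32, 13.2, 9.45, 735 and 8.4 CPM in the same order, and at 21 to 281 CPM in the low-score tumors. Neither was called (adjusted p = 0.53 and 0.608).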
